A study of Mus musculus with 6 samples.

Results

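The 10 genes described here encode the carriers that recover glucose, phosphate, bicarbonate and monocarboxylates from the filtrate in the proximal tubule, the first part of the kidney tubule. They were chosen by name, with earlier results of these data known. Matched on gene symbol in the count files, they are 10 of the 54146 genes listed there. Messenger RNA was sequenced from whole kidneys of 12-week-old mice of the B6C3F1/J strain (postnatal day 84). One group of 3 libraries is labelled KspCre Tfam f/f, that is, both Tfam alleles floxed and a Ksp-Cre transgene present. The other group of 3 is labelled Tfam f/f, floxed in the same way without Cre, so floxed Tfam is common to all 6. Tfam encodes a protein that packages and transcribes mitochondrial DNA. Ksp-Cre is driven by the promoter of Ksp-cadherin, which is active in tubule epithelium, more in distal segments and collecting ducts than in the proximal tubule. Nothing in the labels says that each library is a different mouse, and the p-values here rest on a library-to-library spread that could be technical.

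Glucose enters proximal tubule cells with sodium through SGLT2 (Slc5a2) in the early segments and through SGLT1 (Slc5a1) in the late straight segment, and leaves on the blood side of early segments through GLUT2 (Slc2a2). Phosphate is taken up by the sodium-phosphate cotransporters NaPi-IIa (Slc34a1), NaPi-IIc (Slc34a3) and PiT-2 (Slc20a2), whose place in the brush border membrane is set by parathyroid hormone and FGF23. Bicarbonate is recovered by proton secretion through the sodium-proton exchanger NHE3 (Slc9a3), aided by carbonic anhydrases, and leaves the cell through the sodium-bicarbonate cotransporter NBCe1 (Slc4a4). SMCT1 (Slc5a8) and SMCT2 (Slc5a12) carry lactate and other monocarboxylates with sodium, with high and low affinity.

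The targeted gene was read first, and its level goes against what the labels say. The level of Tfam was 63.1, 63.5 and 61.4 CPM (counts per 1000000, scaled by TMM factors) under the KspCre Tfam f/f label, against 30.3, 33.6 and 23.2 CPM under the Tfam f/f label (edgeR log2 fold change 1.11, SE 0.14, adjusted p = 0.00107). Groups are therefore called by their labels, and every direction given here compares labels whose genotypes are in doubt. Total gene counts were 30348281 to 48899266 under the KspCre Tfam f/f label and 19024208 to 34821537 under the Tfam f/f label. Proximal tubule RNA in the whole kidneys was read from 12 defining markers, which were all detected in every library. They summed to 19680 to 20902 CPM under the KspCre Tfam f/f label and 2647 to 10599 CPM under the Tfam f/f label. Markers of other cell types differed as well. The 12 injured tubule markers summed to 1023 to 1123 CPM under the KspCre Tfam f/f label and 3983 to 15720 CPM under the Tfam f/f label (12 of 12 called lower), and the 8 macrophage markers to 135 to 148 CPM under the KspCre Tfam f/f label and 178 to 554 CPM under the Tfam f/f label (7 lower). Calls in either direction were made for 46.2% of all tested genes, and the shorter lists are read against that share. They were made for 4 of 6 markers of the thick ascending limb (3 higher, 1 lower), 4 of 6 of the distal and connecting tubule (higher), 6 of 6 of intercalated cells (higher), 3 of 6 of podocytes (higher) and 4 of 6 of principal cells (lower). Endothelial markers did not pass in any of 6 cases, fibroblast and mural genes did in 3 of 6 (1 higher, 2 lower), lymphocyte genes in 2 of 7 tested (lower), neutrophil genes in 2 of 2 tested (lower) and red blood cell genes in 4 of 5 (higher). No marker of these lists that was matched had a count of 0 in all 6 libraries, and their part in the results below was not tested.

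All 10 transporter genes were higher under the KspCre Tfam f/f label than under the Tfam f/f label. Each passed the filter on low counts, passed edgeR's quasi-likelihood test with Benjamini-Hochberg adjustment over 17308 genes, and had no overlap between the groups. Of all tested genes, 21.3% were called higher, 24.9% lower and 46.2% in either direction, while 29.8% did not overlap and were higher and 32.1% did not overlap and were lower. A call with at least 2-fold was made for 8 of the 10, all but Slc5a1 and Slc20a2, against 8.75% of tested genes. The members had a median log2 fold change of 1.41, against -0.03 over all tested genes. As the members were chosen with earlier results of these data known, this contrast is a description only. Sizes ranged widely, with Slc5a8 4.42-fold and Slc34a3 3.96-fold higher, and Slc20a2 1.22-fold. Together the 10 genes took 0.741%, 0.813% and 0.813% of gene counts under the KspCre Tfam f/f label and 0.300%, 0.528% and 0.149% under the Tfam f/f label. In whole tissue, fewer proximal tubule cells and less RNA per cell cannot be told apart. The direction of all 10 was kept whichever library was left out, but the number of calls was not: it was 5, 3 and 3 with replicates 1, 2 and 3 of the KspCre Tfam f/f label left out in turn, and 2, 10 and 9 with those of the Tfam f/f label left out. With no filter on low counts, only Slc5a1 and Slc9a3 passed.

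**Figure D1:**
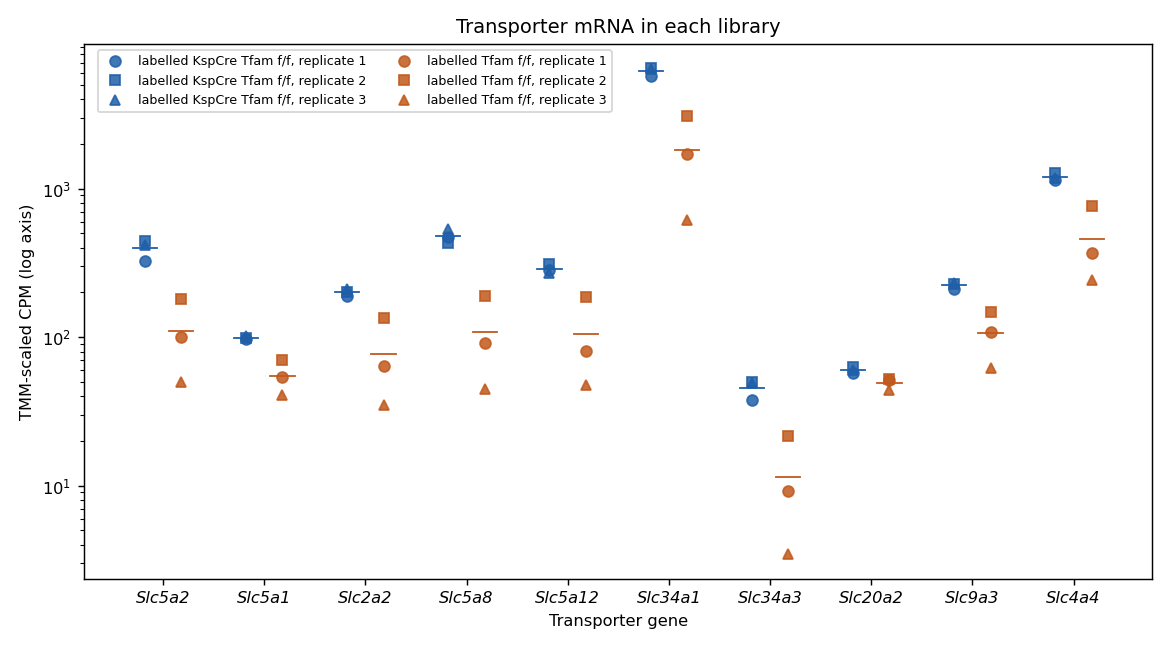
TMM-scaled CPM of the 10 transporter genes on a log axis, the KspCre Tfam f/f label in blue left of the Tfam f/f label in orange; symbols are replicates 1 to 3 and lines are group means. Every gene is higher in all 3 blue libraries than in any orange one, from 1.22-fold for Slc20a2 to 4.42-fold for Slc5a8, and the orange points of all genes but Slc20a2 are spread widely.

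The sodium-glucose cotransporters of the 2 segments differed in how far they were apart between the labels. Slc5a2 had 327, 443 and 419.5 CPM under the KspCre Tfam f/f label, against 99.8, 179.8 and 49.7 CPM under the Tfam f/f label. The groups do not overlap, and replicate 2 was the highest under the Tfam f/f label. The means were 396 ± 61.1 CPM under the KspCre Tfam f/f label and 109.8 ± 65.6 CPM under the Tfam f/f label (SD, n = 3 each), 3.61-fold apart (log2 fold change 1.85, SE 0.42, edgeR adjusted p = 0.011). Slc5a2 shares 597 exonic bases, 20.6% of its exon length, with BC017158 on the opposite strand. The strand setting of the counting is not given in the sources used here, so its counts are uncertain to that extent; BC017158 itself had 972 to 1549 counts under the KspCre Tfam f/f label and 991 to 1379 under the Tfam f/f label, while Slc5a2 had 10996 to 18323 under the KspCre Tfam f/f label and 1185 to 6826 under the Tfam f/f label. Without labelled Tfam f/f replicate 1 the Slc5a2 call was lost (edgeR adjusted p = 0.0502, in a range of 1.26e-05 to 0.0633 over alternatives).

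Slc5a1 was the steadier of the pair. It had 97.2, 99.4 and 101 CPM under the KspCre Tfam f/f label, against 53.7, 70.5 and 40.7 CPM under the Tfam f/f label. The first 3 values have a coefficient of variation of 2.05%, and the other 3 are all lower. The log2 fold change was 0.85 (1.80-fold, SE 0.18, edgeR adjusted p = 0.00837), and Slc5a1 was the one member called under all 15 alternatives. GLUT2, the exit route, lay between: Slc2a2 had 189.6, 201 and 209.7 CPM under the KspCre Tfam f/f label, against 64.2, 134 and 34.9 CPM under the Tfam f/f label. Its log2 fold change was 1.36 (2.57-fold, SE 0.42, edgeR adjusted p = 0.0335). Labelled Tfam f/f replicate 2 reached 66.8% of the mean of the other group for Slc2a2, where replicate 3 reached 17.5%. The Slc2a2 call was lost when any library other than labelled Tfam f/f replicates 2 and 3 was left out (adjusted p 0.0761 to 0.114), and without replicate 2 of that label the gap was 4.08-fold.

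Early and late segment genes were compared as ratios of counts within each library, which need no scaling factor. Slc5a2 counts were 3.36, 4.45 and 4.14 times those of Slc5a1 under the KspCre Tfam f/f label, and 1.86, 2.55 and 1.22 times under the Tfam f/f label. The ratio was higher in each of the first 3 libraries than in any of the others, on average by 1.14 in log2. For Slc2a2 against Slc5a1 the ratios were 1.95, 2.02 and 2.07 under the KspCre Tfam f/f label and 1.20, 1.89 and 0.858 under the Tfam f/f label. Here the groups came close, with labelled Tfam f/f replicate 2 just under the lowest value of the other label, and the mean difference was 0.69 in log2. Taking both early genes together, log2 of the early over late ratio averaged 1.497 ± 0.123 under the KspCre Tfam f/f label and 0.582 ± 0.551 under the Tfam f/f label (SD, n = 3 each). That difference of 0.92 had a two-sided exact permutation p of 0.1 and an adjusted p of 0.14 over the 7 ratios tested; with 3 against 3 libraries 0.1 is the smallest p possible, so none of these ratios could pass 0.05.

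**Figure D2:**
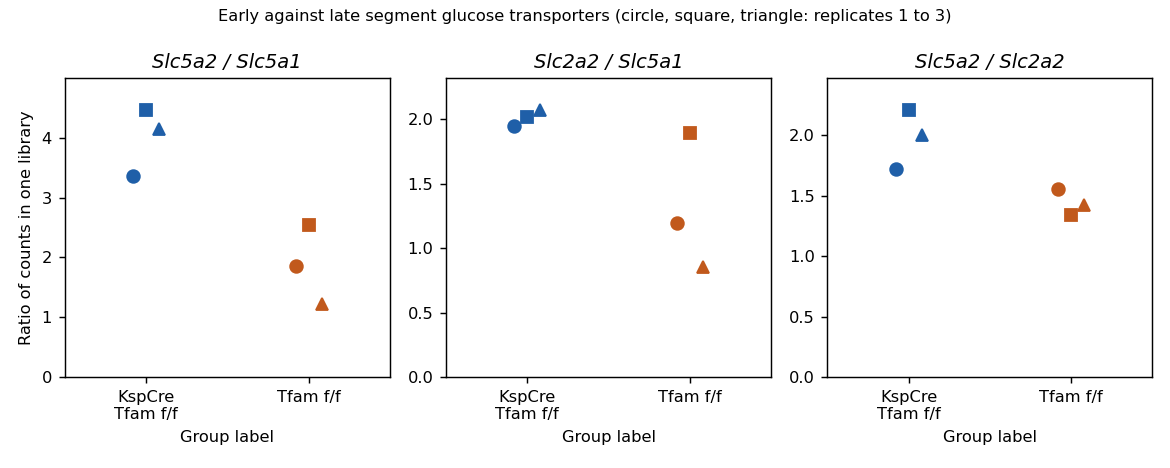
Ratio of counts between glucose transporter genes in each library, the KspCre Tfam f/f label left of the Tfam f/f label, with replicates 1 to 3 as circle, square and triangle on axes that start at 0. The Slc5a2 to Slc5a1 ratio is 3.36 to 4.45 on the left and 1.22 to 2.55 on the right, and the groups do not overlap in any of the 3 panels.

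Lists of other segment genes ran the other way. Their counts stand beside the 21.3% of all tested genes called higher and 24.9% called lower. Among 6 other early segment genes, Slc7a9, a subunit of the cystine transporter, was 2.02-fold higher under the KspCre Tfam f/f label (edgeR adjusted p = 0.0191), and 5 did not pass, with a median log2 fold change of 0.87 for the list. The Slc7a9 call was lost without replicate 1 or 2 of the KspCre Tfam f/f label or replicate 1 of the Tfam f/f label (edgeR adjusted p 0.0561 to 0.072), while 5 genes of the list were called without replicate 2 of the Tfam f/f label. Among 11 other late segment genes, 10 were higher and Slc7a12 did not pass, with a median of 2.14. Cyp7b1, an oxysterol hydroxylase, was 15.7-fold higher, Slc7a13, the late segment cystine carrier, 7.93-fold, and Atp11a, a phospholipid flippase, 4.40-fold. Slc22a7 and Slc22a19, both organic anion transporters, were 48.3-fold and 6.87-fold higher. Slc7a13 was at 12.3-fold when replicate 2 of the Tfam f/f label was left out. The mean log2 count of the early list minus that of the late list was -1.54, -1.18 and -1.48 under the KspCre Tfam f/f label, and -0.28, 0.13 and -0.17 under the Tfam f/f label. The groups did not overlap, and the difference of -1.29 ran opposite to that of the glucose transporters (exact permutation p = 0.1, the smallest possible). The log2 fold change of Slc5a1 was smaller than that of 9 of the 10 late genes called higher, without a test of the difference, the exception being Slc6a18, a glycine and neutral amino acid transporter (log2 fold change 0.81).

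Phosphate carriers ranged from 3.96-fold for Slc34a3 down to the smallest fold of the 10 genes, that of Slc20a2. Slc34a1, the main phosphate carrier of the brush border, had 5692, 6456 and 6363 CPM under the KspCre Tfam f/f label, against 1709, 3098 and 618 CPM under the Tfam f/f label. It made up 66.9% to 67.6% of all counts of the 10 genes under the KspCre Tfam f/f label and 52.0% to 64.8% under the Tfam f/f label. Its log2 fold change was 1.77 (3.41-fold, SE 0.53, edgeR adjusted p = 0.029), and the call was lost when any library other than labelled Tfam f/f replicates 2 and 3 was left out (adjusted p 0.0667 to 0.108). Without replicate 2 of the Tfam f/f label the gap was 5.36-fold. Slc34a3, which in humans is mutated in hereditary hypophosphatemic rickets with hypercalciuria, had 38, 50.2 and 49.1 CPM under the KspCre Tfam f/f label, against 9.22, 21.4 and 3.44 CPM under the Tfam f/f label. Replicate 3 of the Tfam f/f label held 82 counts of Slc34a3, the fewest of any member, and 7.52% of the mean of the other group. Slc34a3 was 3.96-fold higher (log2 fold change 1.99, SE 0.54, edgeR adjusted p = 0.0203), a call lost without replicate 2 or 3 of the KspCre Tfam f/f label or replicate 1 of the Tfam f/f label (0.0594 to 0.0782). Without replicate 2 of the Tfam f/f label it was 7.24-fold higher. The ratio of Slc34a1 to Slc34a3 overlapped between the groups, at 128.5 to 149.8 under the KspCre Tfam f/f label and 144.4 to 185.1 under the Tfam f/f label (exact permutation p = 0.2).

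Slc20a2, a carrier found in many tissues beside the kidney, had the smallest log2 fold change of the 10. It had 57.4, 62.7 and 60.1 CPM under the KspCre Tfam f/f label, against 51.4, 52.3 and 44.2 CPM under the Tfam f/f label. The groups are separate but by little, and the 3 lower libraries lie at 73.5% to 87.1% of the mean of the higher ones. The log2 fold change was 0.28 (SE 0.10, edgeR adjusted p = 0.0434), and it was called under 5 of 15 alternatives. It turned to -0.14 (adjusted p = 0.213) when libraries were scaled by total counts alone, a scaling that moved the median of all genes by -0.43. Relative to that median it was 0.32 higher, near the 0.31 of the main scaling. A scaling moves nearly all genes by the same amount, so this value is no further support for a difference. Its exons share 95 bases (1.53%) with Smim19 on the opposite strand, and those of Slc34a1 share 545 (11.7%) with Pfn3, which had 3 counts or fewer in any library.

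Both sides of bicarbonate transport differed, the apical exchanger by a smaller fold. Slc9a3 had 212, 228 and 232 CPM under the KspCre Tfam f/f label, against 108, 148 and 62 CPM under the Tfam f/f label. It was 2.11-fold higher (log2 fold change 1.08, SE 0.28, edgeR adjusted p = 0.0173), a call lost without replicate 2 or 3 of the KspCre Tfam f/f label or replicate 1 of the Tfam f/f label (0.0544 to 0.0625). Slc4a4 had 1141, 1272 and 1176 CPM under the KspCre Tfam f/f label, against 368, 767 and 243 CPM under the Tfam f/f label. It was 2.60-fold higher (log2 fold change 1.38, SE 0.39, edgeR adjusted p = 0.0237), a call lost without any library other than labelled Tfam f/f replicates 2 and 3 (0.0594 to 0.0982), and 3.97-fold higher without replicate 2 of that label. In both genes labelled Tfam f/f replicate 2 came nearest to the other group, at 66.2% and 64.1% of its mean. The ratio of Slc9a3 to Slc4a4 was 0.180 to 0.198 under the KspCre Tfam f/f label and 0.194 to 0.294 under the Tfam f/f label, so the groups overlapped (exact permutation p = 0.2).

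The monocarboxylate cotransporters stood further apart from each other. Slc5a8 had 471, 431 and 534 CPM under the KspCre Tfam f/f label, against 91.7, 188 and 45 CPM under the Tfam f/f label. The gap was 4.42-fold (log2 fold change 2.14, SE 0.47, edgeR adjusted p = 0.00929), the widest of the 10 genes with all 6 libraries. Without labelled Tfam f/f replicate 2 it was 7.09-fold, and that of Slc34a3, at 7.24-fold, was then wider. Slc5a12 had 281, 309 and 269 CPM under the KspCre Tfam f/f label, against 81.2, 186 and 47.3 CPM under the Tfam f/f label (2.73-fold, log2 fold change 1.45, SE 0.44, edgeR adjusted p = 0.032). Its call, unlike that of Slc5a8, was lost without any library other than labelled Tfam f/f replicates 2 and 3 (0.072 to 0.112), and without replicate 2 of that label its gap was 4.51-fold. Within a library, Slc5a8 counts were 1.40 to 1.99 times those of Slc5a12 under the KspCre Tfam f/f label and 0.952 to 1.13 times under the Tfam f/f label. These ratios did not overlap and differed by 0.70 in log2 (exact permutation p = 0.1, the smallest possible). Slc5a2 against Slc2a2, the entry and exit steps of early segments, likewise did not overlap, at 1.72 to 2.21 under the KspCre Tfam f/f label and 1.35 to 1.56 under the Tfam f/f label (p = 0.1 by the same exact test).

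**Figure D3:**
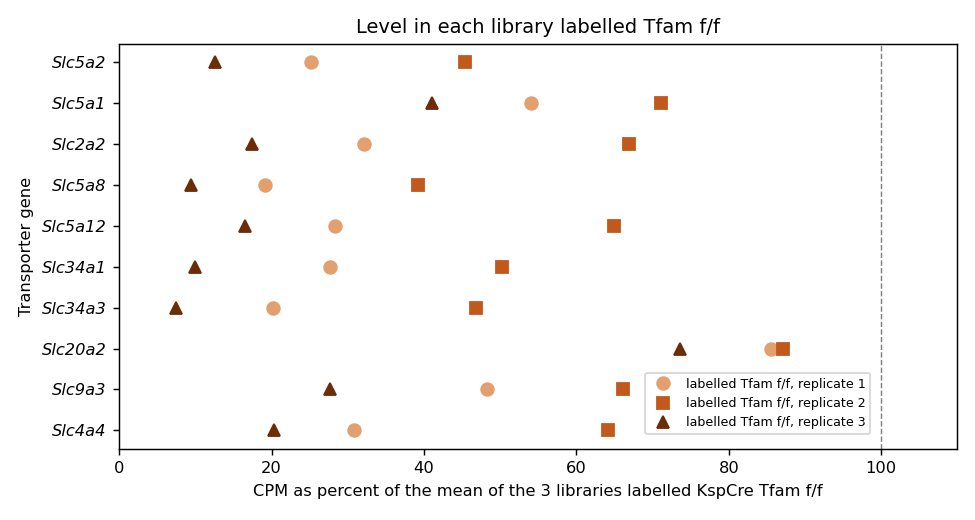
CPM of each transporter in the 3 libraries with the Tfam f/f label, as percent of the mean of the 3 of the KspCre Tfam f/f label (dashed line at 100). In all 10 genes replicate 3 is lowest and replicate 2 highest, from 7.52% to 46.8% for Slc34a3, while Slc20a2 lies at 73.5% to 87.1%.

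Within the Tfam f/f label, the 10 genes ordered the libraries alike. Each was lowest in replicate 3 and highest in replicate 2, and the coefficient of variation was 9.05% for Slc20a2, 27.2% for Slc5a1, 40.7% for Slc9a3 and 59.6% to 80.9% for the other 7. Within the KspCre Tfam f/f label it was 2.05% to 15.4%. The order is not particular to these genes. On the first principal component of all tested genes, 82.3% of the variance, labelled Tfam f/f replicates 2, 1 and 3 lay at -35.6, -67.0 and -103. The KspCre Tfam f/f label lay at 66.6 to 70.0. How many of all tested genes share the order was not counted. The endocytosis receptor gene Lrp2 had 776, 1690 and 313 CPM in labelled Tfam f/f replicates 1, 2 and 3, and Cubn, its partner, 249, 481 and 99.9 CPM. The injury marker Havcr1 had 31.7, 9.88 and 138 CPM and the macrophage marker Cd68 11.1, 7.4 and 18.3 CPM, highest in replicate 3 and lowest in replicate 2. Their part in the spread was not tested.

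Levels of different genes were compared per kilobase of exon. Slc34a1 led with 1320 ± 89.1 CPM per kilobase under the KspCre Tfam f/f label and 387 ± 266 under the Tfam f/f label (SD, n = 3 each). Under the KspCre Tfam f/f label it was followed by Slc5a2 (136.8), Slc4a4 (110.6), Slc5a8 (89.8), Slc5a12 (70.5), Slc9a3 (40.8), Slc2a2 (34.7), Slc5a1 (24.2), Slc34a3 (19.4) and Slc20a2 (9.67). Of these neighbours, Slc5a2 and Slc4a4 overlapped over their libraries and the others did not. Under the Tfam f/f label, Slc34a1 again stood apart, but each of the next genes overlapped with the one after it, from Slc4a4 (42.5) and Slc5a2 (37.9) down to Slc5a1 (13.4). Slc34a3 was last there at 4.82, below Slc20a2 at 7.93, but this pair overlapped too. In labelled Tfam f/f replicate 2, Slc34a3 was at 9.09 and Slc20a2 at 8.42. With the length of the longest transcript in place of all exons, Slc20a2 passed Slc5a1 under the Tfam f/f label (13.8 and 13.4), and Slc9a3 passed Slc5a8 (20.8 and 20.3).

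Other glucose and polyol transporters went both ways. Of 16 listed, 14 were tested, 5 were called higher under the KspCre Tfam f/f label, 2 were called lower and 7 did not pass (median log2 fold change 0.36). Calls in either direction were made for 46.2% of all tested genes, so the list was called about as often as genes at large. Slc2a1, the GLUT1 gene of the late segment and of many other cells, was lower, with 47.4, 51.5 and 50.5 CPM under the KspCre Tfam f/f label, against 138.5, 92.3 and 141.3 CPM under the Tfam f/f label. Its log2 fold change was -1.32 (SE 0.17, edgeR adjusted p = 0.00118), opposite to that of Slc2a2. The urate carrier gene Slc2a9 (2.11-fold), Slc2a12 (2.60-fold) and Slc5a9 (2.48-fold), a sodium-dependent mannose and glucose transporter, were higher. The calls of Slc2a12 and Slc5a9 were lost without replicate 1 or 2 of the KspCre Tfam f/f label or replicate 1 of the Tfam f/f label, and that of Slc5a9 also without replicate 3 of the KspCre Tfam f/f label (adjusted p 0.052 to 0.088). Slc5a10, another sodium-sugar cotransporter of the brush border, and Pdzk1ip1, the accessory subunit of SGLT2, had log2 fold changes of 0.23 (SE 0.25) and 0.28 (SE 0.15) and did not pass; both were chosen after their values were seen, and their difference from Slc5a2 was not tested. The list counted 3 higher without replicate 1 or 2 of the KspCre Tfam f/f label or replicate 1 of the Tfam f/f label, and 1 lower without any single replicate of the KspCre Tfam f/f label.

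Among 14 other genes of phosphate transport and its regulation, 9 were called higher under the KspCre Tfam f/f label, 3 lower and 2 did not pass (median log2 fold change 0.88). The shares over all tested genes were 21.3% higher and 24.9% lower. Pdzk1, a scaffold that binds NaPi-IIa, had 1517, 1522 and 1551 CPM under the KspCre Tfam f/f label, against 472, 711 and 223 CPM under the Tfam f/f label (3.26-fold, edgeR adjusted p = 0.0102). Pth1r, the parathyroid hormone receptor gene, was 2.84-fold and Fgfr4, which encodes a receptor of FGF23, 2.396-fold higher. Fgfr1, another FGF23 receptor gene, named after its values were seen, did not pass (1.18-fold, edgeR adjusted p = 0.0692). Xpr1, the phosphate exporter, was 2.01-fold and the vitamin D receptor gene Vdr 2.11-fold higher. The genes called lower were Slc20a1 (PiT-1), Slc34a2 (NaPi-IIb) and Cyp27b1, which makes active vitamin D; these 3 are named because of their small number, after their values were seen. Slc34a2 had 5.31, 4.74 and 6.07 CPM under the KspCre Tfam f/f label, against 13.5, 6.98 and 45.2 CPM under the Tfam f/f label (log2 fold change -2.02, SE 0.63, edgeR adjusted p = 0.0328). Cyp27b1 overlapped between the groups. Leaving out any single replicate of the KspCre Tfam f/f label left 1 of the list called lower, as did limma voom.

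Of 19 other genes of bicarbonate and proton transport, 9 were called higher under the KspCre Tfam f/f label, 4 lower and 6 did not pass (median log2 fold change 0.39). For this list and the next, the shares over all tested genes were 21.3% higher and 24.9% lower. Car4, the membrane carbonic anhydrase of the brush border, had 194.1, 194.0 and 202.5 CPM under the KspCre Tfam f/f label, against 44.4, 70.8 and 25.2 CPM under the Tfam f/f label (4.20-fold, edgeR adjusted p = 0.00308). Slc9a8, another sodium-proton exchanger, was 4.91-fold higher, Slc26a1, a sulfate and oxalate exchanger of the blood side, 3.26-fold, and Slc4a1, the anion exchanger of intercalated and red blood cells, 9.07-fold. Slc4a3, also an anion exchanger, was lower (log2 fold change -1.56, edgeR adjusted p = 0.00028). The Slc26a1 call was lost without replicate 2 or 3 of the KspCre Tfam f/f label or replicate 1 of the Tfam f/f label (0.055 to 0.0689), and the count called higher was 4 without any of those 3 libraries. The count called lower was 2 without replicate 1 or 2 of the KspCre Tfam f/f label. In monocarboxylate and dicarboxylate transport, 6 of 13 were higher, 2 lower and 5 did not pass (median 0.40). Slc16a12, a creatine carrier, was 2.31-fold, Slc16a4 3.65-fold and the carnitine carrier gene Slc16a9 2.60-fold higher, while Slc16a1 (MCT1, a lactate carrier) was lower (log2 fold change -1.01). The Slc16a9 call was lost when any library other than labelled Tfam f/f replicates 2 and 3 was left out (adjusted p 0.06 to 0.0649), and Slc16a4 without labelled Tfam f/f replicate 1 (0.0544). Slc16a4 was 5.58-fold higher without replicate 2 of that label. The list counted 3 higher without replicate 2 or 3 of the KspCre Tfam f/f label and 2 without replicate 1 of the Tfam f/f label.

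**Figure D4:**
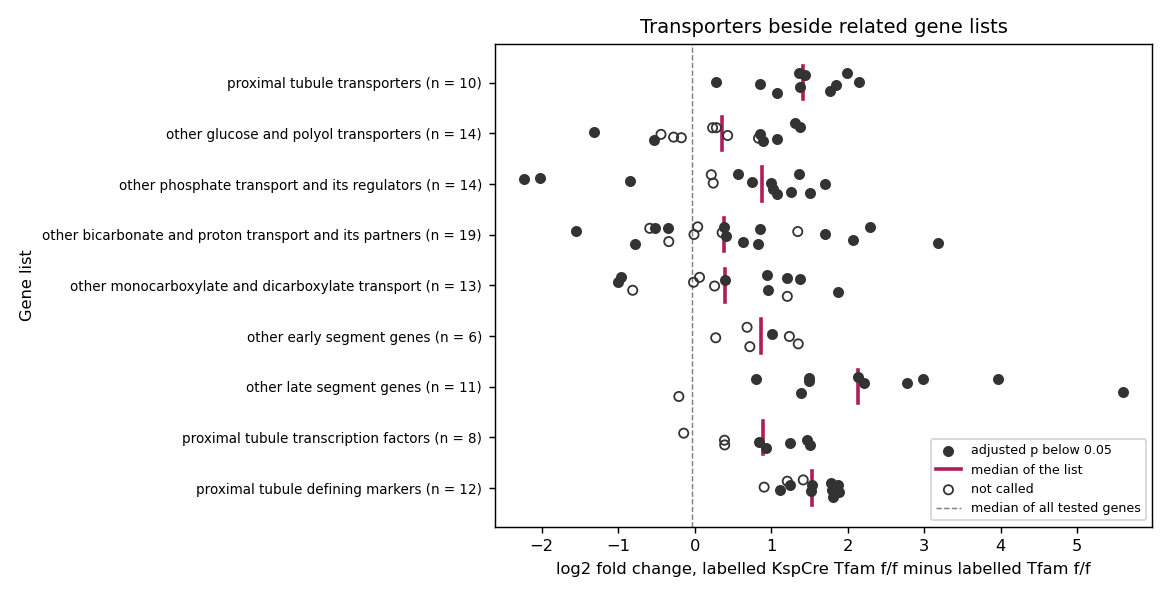
log2 fold change (KspCre Tfam f/f label minus Tfam f/f label) of the 10 transporters and of 8 related gene lists; filled points passed the edgeR test, open points did not, and bars are list medians. The transporters have a median of 1.41 and all lie right of 0, other late segment genes have 2.14, and the other transport lists spread to both sides of 0.

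Transcription factors of proximal tubule cells were higher under the KspCre Tfam f/f label in 5 of 8 cases, and 3 did not pass (median log2 fold change 0.89). Over all tested genes the share called higher was 21.3%. HNF4A is known as an activator of proximal tubule genes in mice. Hnf4a had 869.6, 978 and 920.0 CPM under the KspCre Tfam f/f label, against 327, 481 and 169 CPM under the Tfam f/f label (2.83-fold, SE 0.35 in log2, edgeR adjusted p = 0.0109). Hnf4g was 2.76-fold and Ppara, a regulator of fatty acid oxidation, 2.38-fold higher. Leaving out any one replicate of the KspCre Tfam f/f label ended the call of Ppara (adjusted p 0.0775 to 0.0862), and leaving out labelled Tfam f/f replicate 1 those of Hnf4a (0.0501) and Ppara (0.102). The list counted 3 higher in each of these 4 cases. Of the 12 proximal tubule defining markers 9 were called higher, among them Slc22a6 (3.68-fold), Keg1 (3.67-fold), Ass1 (3.51-fold), Ggt1 (3.45-fold) and Aqp1 (2.17-fold), and 3 did not pass. The median of that list, 1.53, was near the 1.41 of the transporters. Its count of 9 became 3, 2 and 3 with replicates 1, 2 and 3 of the KspCre Tfam f/f label left out in turn, and 1 without replicate 1 of the Tfam f/f label. Slc22a6 and Aqp1 were lost in all 4 cases (adjusted p 0.053 to 0.0715), Ass1 in the second and last (0.0533 to 0.0689) and Keg1 in the last (0.0531).

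By their pattern over the 6 libraries, the genes closest to Slc5a2 among 11763 candidates were Dnajc6, RP23-402I8.3 and Lpar3. Their centred log2 CPM differed from that of Slc5a2 by a root mean square of 0.0747, 0.0859 and 0.0889. Closest to Slc5a1 were Hexim1, Slc25a16 and Atp6v1a, at 0.0318, 0.0364 and 0.0396. These distances are descriptions over libraries that also differ by label.

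Promoter sequence, from 250 bases before to 50 bases after the start, was in the RefSeq table (build GRCm38.p6) for 7 of the 10 genes, and is shown for the early and the late glucose transporter gene whose counts were set side by side above.
Slc2a2, chr3:28697653-28697952, plus strand: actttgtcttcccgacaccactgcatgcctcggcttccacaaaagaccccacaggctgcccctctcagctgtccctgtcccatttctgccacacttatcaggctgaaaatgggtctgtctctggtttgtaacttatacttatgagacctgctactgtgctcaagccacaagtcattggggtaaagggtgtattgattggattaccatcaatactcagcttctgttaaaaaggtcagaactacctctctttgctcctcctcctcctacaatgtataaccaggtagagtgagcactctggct
Slc5a1, chr5:33103969-33104268, plus strand: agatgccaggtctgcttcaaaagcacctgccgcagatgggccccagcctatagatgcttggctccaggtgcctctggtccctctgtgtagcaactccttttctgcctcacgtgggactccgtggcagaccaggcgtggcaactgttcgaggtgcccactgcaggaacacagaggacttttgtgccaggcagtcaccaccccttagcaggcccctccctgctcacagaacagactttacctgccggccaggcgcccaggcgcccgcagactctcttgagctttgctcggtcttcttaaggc

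In the GENCODE M21 annotation of mm10, Slc34a1 lies on chromosome 13 (55398187 to 55415592). Slc5a2 lies on chromosome 7 (128265657 to 128272430), Slc5a1 on chromosome 5 (33104219 to 33162870) and Slc2a2 on chromosome 3 (28697903 to 28731359). Slc34a3 is on chromosome 2 (25228898 to 25234364), Slc20a2 on chromosome 8 (22476788 to 22569612), Slc9a3 on chromosome 13 (74121457 to 74169442) and Slc4a4 on chromosome 5 (88886818 to 89239653). Slc5a8 is on chromosome 10 (88885992 to 88929515) and Slc5a12 on chromosome 2 (110597298 to 110647779). All but Slc34a3 are on the plus strand, and each value counts reads over all exons of a gene, so transcript variants, such as the 12 annotated for Slc5a2 or the 8 for Slc4a4, were not told apart.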

How the data were processed

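Poly A+ RNA of whole kidneys was sequenced as strand-specific libraries, per the labels' protocols. The authors deposited raw counts for each gene, and the submitters' processing notes name FastQC, Trim Galore, STAR 2.4.1d, HTSeq 0.11.0 and mm10. The settings, annotation release and strand option of the counting are unstated in the sources used here. Summary lines without a gene were left out. They made up 19.5% to 20.4% of each file under the KspCre Tfam f/f label and 16.0% to 17.7% under the Tfam f/f label. Alignments that were not unique, a part of these, made up 10.4% to 10.8% and 5.06% to 6.74%.

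The raw counts went through edgeR 4.0.16 under R 4.3.3 (filterByExpr with minimum count 10, TMM factors, robust quasi-likelihood fit, Benjamini-Hochberg adjustment over 17308 genes, called below 0.05). CPM, and CPM per kilobase of union exon length (GENCODE M21), were computed from the counts. A log2 fold change is the KspCre Tfam f/f label minus the Tfam f/f label. Ratios within a library used counts + 0.5 and a two-sided exact permutation test (SciPy 1.17.1). The procedure was tested on simulated data. It recovered 17.9% of 1.5-fold, 61.2% of 2-fold and 84.8% of 4-fold changes, with 6 false calls among 17073 genes. A gene that did not pass may therefore still differ. The simulation gave both labels the same spread and changed only 66 or 67 genes for each fold. In these data 46.2% of tested genes were called, so the simulated rates cannot be carried over to this comparison. No library was a duplicate. Between libraries of a group, chi-square per degree of freedom was 7.04 to 11.8 under the KspCre Tfam f/f label and 62.8 to 163 under the Tfam f/f label. The spread was thus unequal between the labels.

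The members and gene lists were chosen with earlier results of these data known. Named genes are all members, Tfam, up to 5 genes per list called with at least 2-fold change by smallest p, Hnf4a, Lrp2, Cubn, Havcr1 and Cd68, and the 3 genes nearest in pattern to Slc5a2 and Slc5a1; other names were chosen after their values were seen, and 1 gene of the rule is not reported here. Alternatives were other scalings and filters, DESeq2 1.42.0, limma 3.58.1 voom, a replicate block, thinning to the shallowest library and each library left out.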

Additional observations from a re-analysis of the deposited data

How the results depend on the processing

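Of 150 values of the 10 members under 15 alternatives, 149 were higher under the KspCre Tfam f/f label and 109 were called; the exception in direction was Slc20a2 with total-count scaling (-0.14). The members called higher numbered 10 with DESeq2, limma voom, RLE scaling and a filter of 1 CPM in 3 libraries, 9 with upper quartile scaling or thinning, 8 with total-count scaling and 2 with no filter on low counts. Leaving out 1 library gave 2 to 10. The early over late difference became -1.29 with the other segment lists in place of the glucose transporters. Total-count scaling gave 1680 genes called higher and 8519 lower among all tested, 4 other glucose transporters lower, 4 bicarbonate genes higher and 7 lower, 3 transcription factors higher and 1 lower, and 5 defining markers higher. With no filter, 3 glucose, 3 monocarboxylate and 3 transcription factor genes, 5 markers and 0 early genes were called higher, and 1 phosphate gene lower; limma voom also called 1 phosphate gene lower. Leaving out 1 library gave 2276 to 4652 genes higher and 2822 to 4942 lower among all tested. For the lists it gave 3 to 6 other glucose and polyol transporters higher, 1 to 2 other glucose and polyol transporters lower, 1 to 3 other phosphate transport and its regulators lower, 4 to 11 other bicarbonate and proton transport and its partners higher, 2 to 5 other bicarbonate and proton transport and its partners lower, 2 to 8 other monocarboxylate and dicarboxylate transport higher, 0 to 5 other early segment genes higher, 3 to 6 proximal tubule transcription factors higher, 1 to 12 proximal tubule defining markers higher. The causes were not tested. Same-numbered libraries of the groups did not deviate together (correlations -0.174, -0.0702 and -0.0708). Libraries of unlike number gave -0.0619 to 0.194. Deviations were taken from the mean of 3 libraries, so these values cannot settle whether the numbers pair the libraries. With the replicate block 9 members were called (Slc20a2 lost, edgeR adjusted p = 0.0951) and 2 early genes were called higher. In all, 3227 genes were then called higher and 3586 lower. With all libraries thinned to the shallowest, Slc20a2 was the member whose call was lost (adjusted p = 0.0569).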
